A study of Mus musculus with 10 samples.

Results

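The genes that encode the proteins of the cytosolic ribosome were followed across hearts of 14-day-old mice, 5 wild type (WT) and 5 with Lmna knocked out on both alleles (KO), all C57BL/6. Lmna encodes lamin A and lamin C, proteins of the nuclear lamina. Total RNA of each heart was sequenced as 1 library, and libraries are called WT1 to WT5 and KO1 to KO5 after the numbers in the labels, which give each its own animal number. The members are the rows of the deposited expression table whose symbols follow the ribosomal protein naming pattern, with Rpl3, Rpl3l, the S6 kinases and pseudogene names left out. This gave 77 of the 14626 named genes, 33 of the small subunit and 44 of the large subunit. Rpl26, Rpl30 and Rpl34 were not analysed here.

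A cytosolic ribosome holds 1 copy of most of these proteins around its ribosomal RNA, so cells make them in matched amounts. Their mRNAs are abundant, and in vertebrates most begin with a cytosine followed by a run of pyrimidines, the terminal oligopyrimidine (TOP) tract. Through that tract mTORC1, the growth-control kinase, adjusts their translation, with the RNA-binding protein Larp1 as a repressor. Transcription of ribosomal RNA by RNA polymerase I and of the protein genes, the latter helped by MYC in many tissues, sets how many ribosomes a growing heart can build.

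Values below are signal units, counts scaled to a library's effective size (CPM) as the authors deposited them. A change is the KO minus WT difference on the log2(signal + 0.5) scale from limma, fitted over all 12855 genes whose signal averaged 1 or more, and a gene is called at a Benjamini-Hochberg adjusted p under 0.05. The deviation of a gene in a library is its log2(signal + 0.5) minus the mean of the 5 WT libraries. Libraries held 15235622 to 22112192 reads in named genes. Lmna itself was 105.2, 102.3, 110.1, 104.8 and 107.5 in WT1 to WT5 and 38.4, 22.1, 30.3, 28.7 and 48.9 in KO1 to KO5, with no overlap (change -1.69, SE 0.17, limma adjusted p = 0.00461). Which part of Lmna was deleted is not given in the labels. KO2 and KO5 stood apart from the other hearts over all genes: their mean correlation with the WT libraries was 0.962 and 0.905, against 0.982 to 0.985 in KO1, KO3 and KO4 and 0.989 to 0.991 among WT libraries. Calls among the members are therefore given with and without each of them. Calls in other gene lists are given with and without KO5, and for some lists also without KO2 or without both.

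The starts of the genes were searched for letters of the tract that the family is known for. RefSeq promoter windows (GRCm38.p6) were at hand for 58 of the 77 members. CTTTC or CTCTT, searched on the gene's strand within 15 bases either side of the start, was present in 21 of these 58 (36.2%) and in 7.81% of the 9551 other tested genes with a window. CTTTC alone was in 27.6% against 4.35%, and CTCTT alone in 20.7% against 4.21%. Below are the 15 bases before and the 15 after the start for 10 members, with each copy of CTTTC, of the motif CTCTT and of a related motif, CTTCC (20.7% of members, 10.6% of other genes), in capitals. The first 6 were chosen for a tract at the start and low signal in KO2, the next 3 for a tract without that low signal, and Rps27l as a paralog with none of the motifs in either of its 2 entries, of which 1 is shown.
Rps6 (chr4:86857353-86857382, minus strand): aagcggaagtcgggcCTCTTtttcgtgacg
Rpl28 (chr7:4792950-4792979, plus strand): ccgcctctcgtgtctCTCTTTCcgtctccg
Rpl38 (chr11:114668565-114668594, plus strand): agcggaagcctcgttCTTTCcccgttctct
Rplp2 (chr7:141447636-141447665, plus strand): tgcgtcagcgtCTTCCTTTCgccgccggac
Rpl35 (chr2:39005117-39005146, minus strand): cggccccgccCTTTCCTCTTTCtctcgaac
Rps10 (chr17:27635230-27635259, minus strand): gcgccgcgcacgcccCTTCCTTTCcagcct
Rpl15 (chr14:18270972-18271001, minus strand): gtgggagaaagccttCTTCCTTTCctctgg
Rps15a (chr7:118116133-118116162, minus strand): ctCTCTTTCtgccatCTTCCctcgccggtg
Rpl22l1 (chr3:28805493-28805522, plus strand): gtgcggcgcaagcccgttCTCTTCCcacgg
Rps27l (chr9:66946071-66946100, plus strand): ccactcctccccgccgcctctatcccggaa
A match is a description of the letters, not a mapped transcript end, and CTTCC can overlap the other motifs.

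A wider window, from 250 bases before to 50 after the start, was searched for motifs of transcription factors. On both strands the core of ETS factors, CGGAAG, was in 39 of the 58 members (67.2%) and in 34.0% of the other genes. The core of the factor YY1, ATGGCG, was in 31.0% against 17.3% on both strands, and the Sp1 core, GGGCGG, in 63.8% against 68.9%. The Rps6 promoter is printed because it holds CGGAAG more than once, with CGGAAG, its reverse complement CTTCCG and the tract CTCTT in capitals.
Rps6 promoter (chr4:86857353-86857517, minus strand): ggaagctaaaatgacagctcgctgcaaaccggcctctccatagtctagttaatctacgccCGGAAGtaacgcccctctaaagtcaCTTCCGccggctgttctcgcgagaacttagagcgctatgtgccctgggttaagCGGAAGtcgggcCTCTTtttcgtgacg

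Between the genotypes, no ribosomal protein gene was called with all libraries. A total of 76 members passed the filter on low signal, and 0 of 76 were called higher or lower by limma, where 0.202% of all genes were called. None had an unadjusted p under 0.05, against 20.8% of all genes, and edgeR and DESeq2 called 0 of 77 as well, where they called 0.253% and 6.05% of all genes. The smallest adjusted p was 0.424, for Rps13. The median change was 0.02 over the members and -0.01 over all genes, with 45 members above 0 and 31 below. That split moved with the fit: on recovered reads edgeR put 65 above 0 and 12 below (median 0.10, 0.022 over all genes), and DESeq2 66 and 11 (median 0.11, 0.024 over all genes). The genotypes overlapped for all 76, where 4.07% of all genes lay higher without overlap and 6.18% lower. In the authors' deposited table of their own comparison, 0 of 77 members had a false discovery rate under 0.05, against 5.52% of all rows.

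What differed was the spread among KO hearts. The summed signal of the 77 members was 16030, 16648, 16214, 16771 and 16230 in WT1 to WT5. It was 17125, 10537, 17252, 16057 and 25851 in KO1 to KO5. The WT hearts lay within a narrow band, KO1, KO3 and KO4 lay at or just beyond its edges, and KO2 and KO5 lay far below and far above it. As group values the sums were 16380 ± 315 (SD, n = 5) for WT and 17360 ± 5487 (SD, n = 5) for KO, a ratio of 1.06, and KO1, KO3 and KO4 alone gave 16810 ± 656 (SD, n = 3), a ratio of 1.03. KO2 was at 0.643 and KO5 at 1.58 times the WT mean. As shares of all reads in named genes, members took 1.56% to 1.72% in WT, 1.63% to 1.79% in KO1, KO3 and KO4, 1.2% in KO2 (95% Wilson interval 1.19% to 1.20%) and 2.33% in KO5 (2.32% to 2.34%). The intervals cover counting error only.

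**Figure D1:**
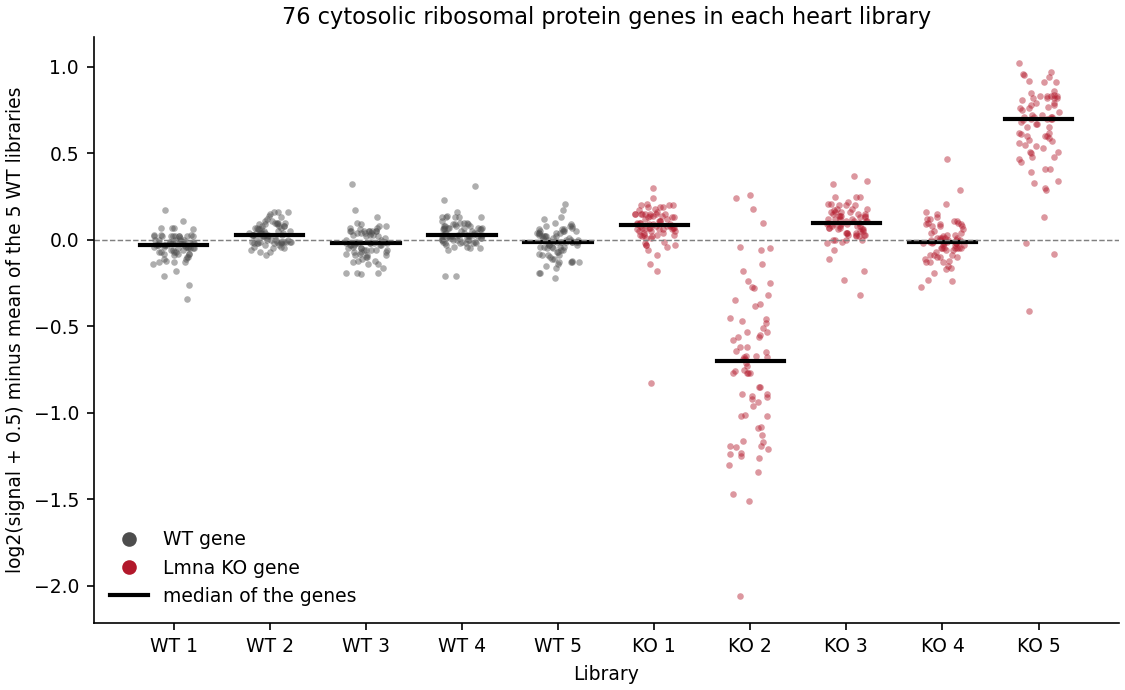
Deviation of each of the 76 tested ribosomal protein genes from its WT mean (y axis, log2 units of signal + 0.5) in each of the 10 libraries (x axis), with a black bar at the median of the genes. Medians lie between -0.03 and 0.10 in every library except KO2 (-0.70) and KO5 (0.70).

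Nearly the whole family lay on 1 side of WT in each of those hearts, low in KO2 and high in KO5. In KO2 the median deviation was -0.70 and 69 of 76 members lay below all 5 WT libraries, where 38.1% of all genes did. In KO5 the median deviation was 0.70 and 73 of 76 lay above all WT libraries, where 40.9% of all genes did. Above all WT libraries in KO2 were 3 members (34.7% of all genes), and below them in KO5 was 1, Rps4l (41.9%). Both held at once for 68 of 76 members (89.5%), 28 of 32 in the small and 40 of 44 in the large subunit, against 13.4% of all genes. Members share their library, so these counts describe 1 heart each and are no test. The coefficient of variation was 1.26% to 18.7% among WT hearts (median 5.08%, 8.53% over all genes) and 8.2% to 54.8% among KO hearts (median 34.9%, 22.4% over all genes).

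In the other KO hearts the members lay close to WT. Median deviations were 0.09 in KO1, 0.10 in KO3 and -0.01 in KO4. Above all WT libraries lay 38, 43 and 11 of the 76 members in KO1, KO3 and KO4, where 23.8%, 24.4% and 27.6% of all genes did. Below all WT libraries lay 6, 5 and 19, where 25.4%, 26.3% and 28.9% of all genes did.

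Genes whose proteins have known roles outside or at the edge of the ribosome come next. Each gene named for such a role was lowest in KO2 and highest in KO5. Rps6, the small subunit protein that S6 kinase phosphorylates, was 324.7, 317.7, 306.0, 306.5 and 342.4 in WT1 to WT5 and 332.0, 187.5, 325.2, 308.8 and 646.3 in KO1 to KO5. KO2 lay below and KO5 above every WT value, while the other 3 KO hearts fell inside the WT range (change 0.06, SE 0.25, limma adjusted p = 0.91). Its KO5 value, 2.02 times the WT mean, was the only one over 2 times among the tested members.

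Rpl5 and Rpl11 bind the 5S ribosomal RNA and, when free of ribosomes, restrain Mdm2 and so stabilise p53. Rpl5 was 394.1, 399.1, 382.7, 375.9 and 386.8 in WT1 to WT5 and 404.5, 241.9, 411.8, 374.3 and 702.8 in KO1 to KO5. Rpl11 was 166.9, 168.8, 166.5, 178.1 and 168.5 in WT and 180.0, 68.8, 186.8, 171.2 and 257.0 in KO. KO2 and KO5 were again the extremes for both, but Rpl11 lay further below WT in KO2 (deviation -1.30 against -0.68) and less far above it in KO5 (0.60 against 0.86). Their changes were 0.06 (SE 0.22) and -0.09 (SE 0.27), with limma adjusted p values of 0.9 and 0.865.

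The stalk that recruits translation factors is formed by Rplp0, its base, and by Rplp1 and Rplp2. Rplp0, the highest of the members in signal, was 671.8, 712.5, 746.2, 753.5 and 669.0 in WT1 to WT5 and 719.4, 558.1, 731.4, 703.3 and 1093.5 in KO1 to KO5. Rplp1 was 231.2, 259.3, 231.2, 267.3 and 233.1 in WT and 252.0, 170.9, 268.1, 254.7 and 372.8 in KO. Rplp2 was 110.6, 130.8, 132.8, 143.3 and 124.3 in WT and 133.4, 50.3, 152.1, 141.7 and 206.1 in KO. All 3 were lowest in KO2 and highest in KO5, and KO2 spread them apart, with deviations of -0.35, -0.51 and -1.34. None was called (changes 0.07, 0.07 and -0.04, with SE 0.16, 0.17 and 0.30, limma adjusted p from 0.831 to 0.949).

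Rps19, the gene most often mutated in Diamond-Blackfan anaemia, was 110.7, 110.8, 106.3, 115.1 and 98.4 in WT1 to WT5 and 123.4, 53.4, 128.7, 110.9 and 192.1 in KO1 to KO5. Only KO4 fell inside the WT range, and KO2 alone fell below it (change 0.06, SE 0.26, limma adjusted p = 0.911). Of the 18 Diamond-Blackfan genes listed, 16 were tested and 0 were called, where 0.202% of all genes were. All 16 lay below the WT range in KO2 and above it in KO5, as did 68 of the 76 tested members and 13.4% of all genes. Rps27a, made as a fusion with ubiquitin, was 153.4, 163.1, 142.4, 153.7 and 148.1 in WT and 169.3, 95.6, 180.3, 157.1 and 249.5 in KO (change 0.10, SE 0.20, limma adjusted p = 0.791). Rpsa, also known as the laminin receptor, was 396.6, 382.0, 426.3, 405.5 and 426.0 in WT and 391.4, 311.7, 377.9, 343.6 and 501.5 in KO. KO3 and KO4 were below all WT values for Rpsa along with KO2 (change -0.10, SE 0.12, limma adjusted p = 0.663).

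The members farthest from the family in KO2 and KO5 were named after their values were seen. Rpl36, a large subunit protein, was 133.0, 161.9, 144.0, 166.4 and 151.2 in WT1 to WT5 and 174.0, 35.7, 188.3, 174.6 and 296.7 in KO1 to KO5. It was the lowest member in KO2, at 0.236 of the WT mean, followed by Rps28 at 0.345 and Rps18 at 0.359, and it was above all WT values in the other 4 KO hearts. In all, 21 of 76 members were under 0.5 of their WT mean in KO2, and 51 were over 1.5 times it in KO5. The same counts were not made over all genes, so they describe the members only.

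A few members were not low in KO2. Rpl39, a short protein that lines the exit tunnel of the nascent chain, was 111.2, 118.7, 101.2, 115.7 and 120.0 in WT1 to WT5 and 121.6, 133.7, 124.0, 103.4 and 142.4 in KO1 to KO5. Rpl10, which joins the large subunit late in assembly, was 299.0, 284.5, 306.6, 297.5 and 245.7 in WT and 325.9, 322.8, 289.1, 263.5 and 416.7 in KO. Both were above every WT value in KO2 as well as in KO5. Rps27l (0.26) and Rpl22l1 (0.10) also had deviations above 0 in KO2, while Rps15a (-0.04), Rpl15 (-0.05) and Rps13 (-0.06) were just under 0.

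**Figure D2:**
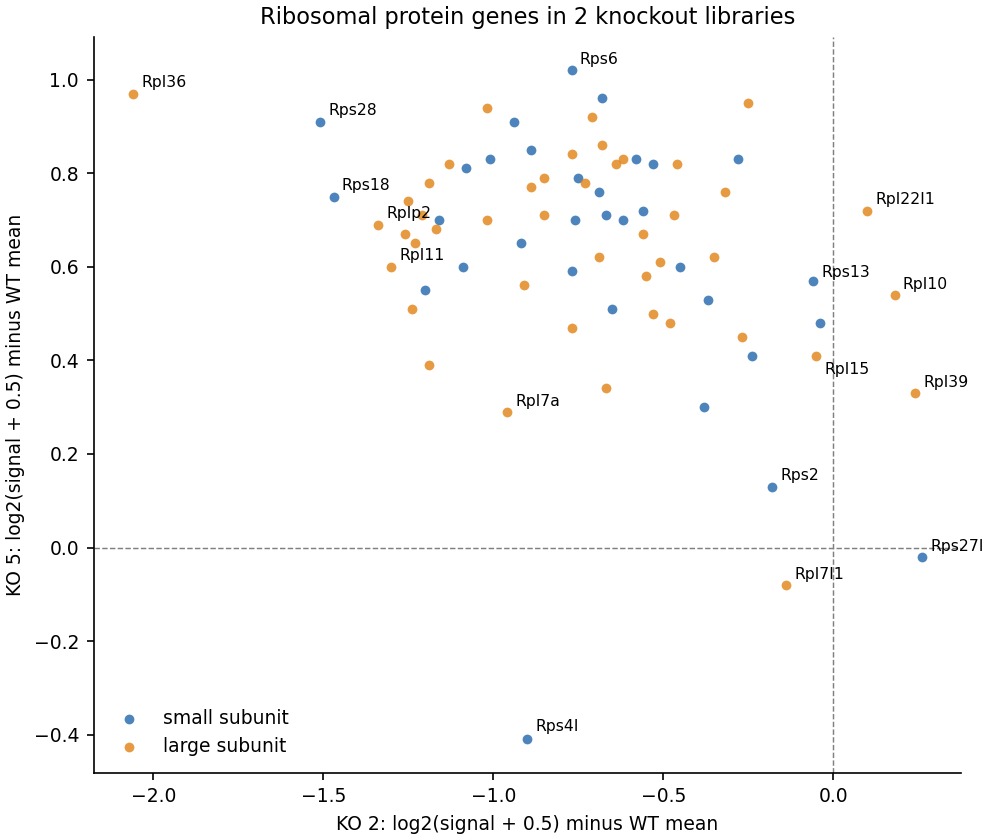
Deviation from the WT mean of each tested ribosomal protein gene in KO2 (x axis) and KO5 (y axis), in log2 units of signal + 0.5, with small subunit genes in blue and large subunit genes in orange. Most genes fill the upper left field, low in KO2 and high in KO5, and Rps27l, Rpl7l1 and Rps4l are the 3 genes below 0 in KO5.

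The paralogs differed from the family in KO2 or KO5, by values alone, since the difference was not tested. Rps27l, a paralog of Rps27 that p53 induces in human cells, was 57.2, 50.2, 50.6, 52.7 and 53.6 in WT1 to WT5 and 54.6, 63.4, 60.9, 49.5 and 52.0 in KO1 to KO5 (change 0.08, SE 0.09, limma adjusted p = 0.627). Rpl7l1, a paralog of Rpl7, was 53.0, 52.2, 53.3, 43.5 and 51.4 in WT and 53.6, 45.7, 43.2, 46.3 and 47.8 in KO (change -0.10, SE 0.09, limma adjusted p = 0.548). For Rpl7l1 the KO hearts covered almost the same range as the WT hearts, and KO5 was inside it. Rpl7 itself was at 0.680 of its WT mean in KO2 and at 1.59 times it in KO5. Rpl22l1, a paralog of Rpl22 that rises when Rpl22 is lost in mice, was 23.9, 23.7, 19.6, 20.9 and 18.5 in WT and 22.2, 22.8, 21.5, 17.5 and 35.3 in KO (change 0.13, SE 0.17, limma adjusted p = 0.668). Rpl22 was 105.6, 120.2, 104.8, 120.3 and 118.7 in WT and 117.4, 77.5, 127.4, 120.7 and 170.7 in KO (change 0.07, SE 0.17, limma adjusted p = 0.843). Rpl22l1 and Rpl22 were alike in KO5, at 1.66 and 1.5 times the WT mean, and apart in KO2, at 1.07 and 0.680 of it.

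Rps4l stands aside from the other members. GENCODE M21 annotates it as a transcribed processed pseudogene, and its row lies within the span of Tmtc1. It was 16.4, 23.2, 26.0, 17.9 and 22 in WT1 to WT5 and 24.1, 10.9, 23.3, 29.0 and 15.5 in KO1 to KO5, low in both KO2 and KO5. The row named Rps27 held a signal of at most 1.27 in any library and was the 1 member that failed the filter. Many ribosomal protein genes have near-identical pseudogenes, and how reads that match several copies were counted is not given in the sources used here, so single values of the family carry that uncertainty.

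Leaving out a library shows how far KO2 and KO5 set the group values. Without KO5, 640 genes were called (4.98%) and 0 of 76 members, the median change of the members was -0.13, and 66 of 76 were below 0, with an unadjusted p under 0.05 for 3 members and 22.5% of all genes. Without KO2, 14 genes were called (0.109%) and 0 members, the median was 0.21, and 72 were above 0, with an unadjusted p under 0.05 for 7 members and 25.5% of all genes. The sign of the family's median thus followed which of the 2 hearts was left in.

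Without both, 1370 genes were called (10.7%), 545 higher (4.24%) and 825 lower (6.42%), and 2 of 76 members were among them, named after their values were seen. Rpl13a, which in human monocytes also silences inflammatory mRNAs after release from the ribosome, was 211.0, 234.7, 210.0, 240.8 and 208.8 in WT1 to WT5 and 272.5, 134.6, 278.5, 270.3 and 417.9 in KO1 to KO5. Every KO heart but KO2 was above all WT hearts, and Rpl13a rose by 0.31 (SE 0.06, limma adjusted p = 0.0127) in that fit, against 0.23 (SE 0.23, limma adjusted p = 0.58) with all libraries. Rps2, a small subunit protein near the mRNA entry channel, was 666.7, 654.5, 699.6, 683.6 and 690.8 in WT and 638.1, 598.5, 545.3, 578.2 and 742.9 in KO. Every KO heart but KO5 was below all WT hearts, and Rps2 fell by 0.21 (change -0.21, SE 0.06, limma adjusted p = 0.0446) in that fit, against -0.14 (SE 0.10, limma adjusted p = 0.448) with all libraries. The fit without both rests on 3 KO hearts and was planned with their position known. In it the genotypes did not overlap for 8 members that were higher (Rpl13a, Rpl24, Rpl36, Rpl37 and Rps23 among them) and 1 that was lower (Rps2), where 8.37% and 11.1% of all genes did. The median change was 0.05 over the members, 62 above 0 and 14 below, and -0.002 over all genes, and the unadjusted p was under 0.05 for 14 members and 27.9% of all genes.

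**Figure D3:**
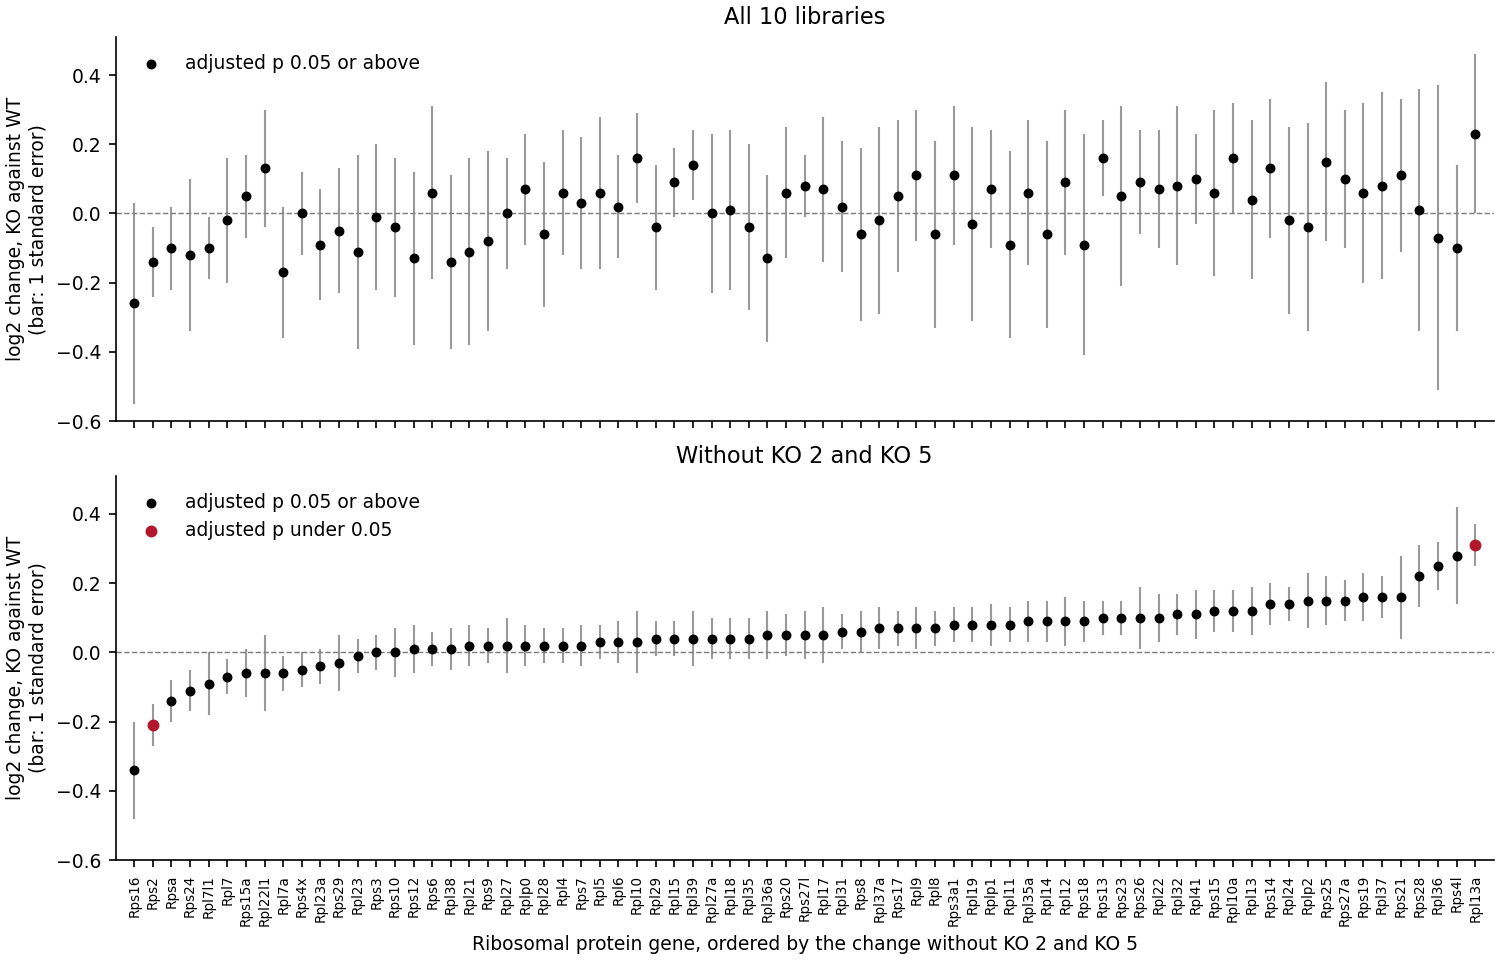
Log2 change between KO and WT with 1 standard error for 73 of the 76 tested ribosomal protein genes (x axis, in 1 fixed order), with all 10 libraries (top) and without KO2 and KO5 (bottom). Rpl13a and Rps2, in red, are the 2 genes with an adjusted p under 0.05, in the lower panel only, and the bars are shorter there.

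The highest and the lowest changes with all libraries were small beside their errors. Among the 6 highest were Rpl13a (0.23, SE 0.23), Rpl10 (0.16, SE 0.13), Rps13 (0.16, SE 0.11) and Rpl10a (0.16, SE 0.16). The 6 lowest were Rps16 (-0.26, SE 0.29), Rpl7a (-0.17, SE 0.19), Rps2 (-0.14, SE 0.10), Rpl38 (-0.14, SE 0.25), Rpl36a (-0.13, SE 0.24) and Rps12 (-0.13, SE 0.25). None of the 12 passed, the limma adjusted p running from 0.424 to 0.791.

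Rps16, whose tail reaches the peptidyl site of the small subunit, had a KO pattern of its own. It was 103.9, 105.9, 109.9, 109.9 and 106.7 in WT1 to WT5 and 60.1, 50.6, 94.4, 106.8 and 189.0 in KO1 to KO5. KO1 was almost as low as KO2, KO3 was also below all WT values, KO4 was inside the range and KO5 was above it (limma adjusted p = 0.614). Its deviation of -0.83 in KO1 was the lowest of any member in that heart, where the median was 0.09. Rpl38, which in mouse embryos is needed for translation of a group of Hox mRNAs, was 100.4, 113.8, 103.0, 106.3 and 103.1 in WT and 110.2, 44.4, 110.8, 97.4 and 150.2 in KO. KO2 and KO4 were below all WT values, and its deviations of -1.24 in KO2 and 0.51 in KO5 stood lower than the family's medians there, -0.70 and 0.70.

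The mRNAs of the members are short, and deviations went with base composition in libraries of both genotypes. The GENCODE M21 transcript had a median length of 887 bases over 75 members and of 3123 over 11888 tested genes, with a GC content of 50.9% and 50.3%. Across genes, the KO2 deviation had a Spearman correlation of -0.31 with GC content over the members and of -0.36 over all genes, and 0.17 and 0.20 with length. With GC content the KO5 deviation had correlations of 0.06 and 0.04, while those of single WT libraries ran from -0.28 to 0.48 over the members and from -0.30 to 0.32 over all genes, and those of KO1, KO3 and KO4 from 0.23 to 0.38 and from 0.17 to 0.28. The 560 other genes with transcripts under 1000 bases had a median deviation of -0.39 in KO2 and -0.22 in KO5, so in KO5 they lay on the other side of 0 from the members. Genes are not independent replicates, and the part of base composition in the KO2 values was not tested. Members with CTTTC or CTCTT at the start had a median of -0.85 in KO2 and 0.70 in KO5, and those without -0.68 and 0.68. With or without the ETS, YY1 or Sp1 core, medians ran from -0.83 to -0.71 in KO2 and from 0.65 to 0.71 in KO5. The TATA box, TATAAA, was in 6 of the 58 members on the gene's strand of the wider window (10.3%, 5.3% of other genes). Members with it had medians of -0.26 and 0.51, and those without -0.76 and 0.70. These differences were not tested.

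Small nucleolar RNAs, which guide modification of ribosomal RNA, lie in introns of many ribosomal protein genes, and their rows took a course of their own. Of the small RNA rows, 22 lay within the span of 18 members, and 14 in 13 members passed the filter. Snord15b, inside Rps3, was 112.3, 320.0, 67.6, 194.3 and 200.9 in WT1 to WT5 and 225.4, 642.7, 322.7, 280.1 and 473.4 in KO1 to KO5. Its host Rps3 was 274.8, 267.6, 276.8, 276.7 and 261.4 in WT and 273.4, 160.3, 285.2, 258.0 and 440.3 in KO. In KO2 the host was at its lowest and the small RNA at its highest, and the WT values of the small RNA ranged far more widely than those of the host.

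Across the rows the order was alike. The median deviation of the 14 small RNA rows was -0.56, 1.02, -1.06, 0.37 and 0.22 in WT1 to WT5 and 0.67, 2.12, 1.08, 1.08 and 1.48 in KO1 to KO5. The 13 hosts had medians of 0.06, -0.64, 0.08, -0.07 and 0.70 in KO1 to KO5. KO2 was the highest library for 13 of 14 small RNA rows and WT3 the lowest for 13. None was called (limma adjusted p 0.0972 or above), and Snora7a in Rpl32 (change 1.77, SE 0.44) and Snora3 in Rpl27a (1.49, SE 0.37) had the lowest adjusted p. The use of strand in counting is not given in the sources used here, and reads of a small RNA and of unspliced host RNA cannot be told apart.

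**Figure D4:**
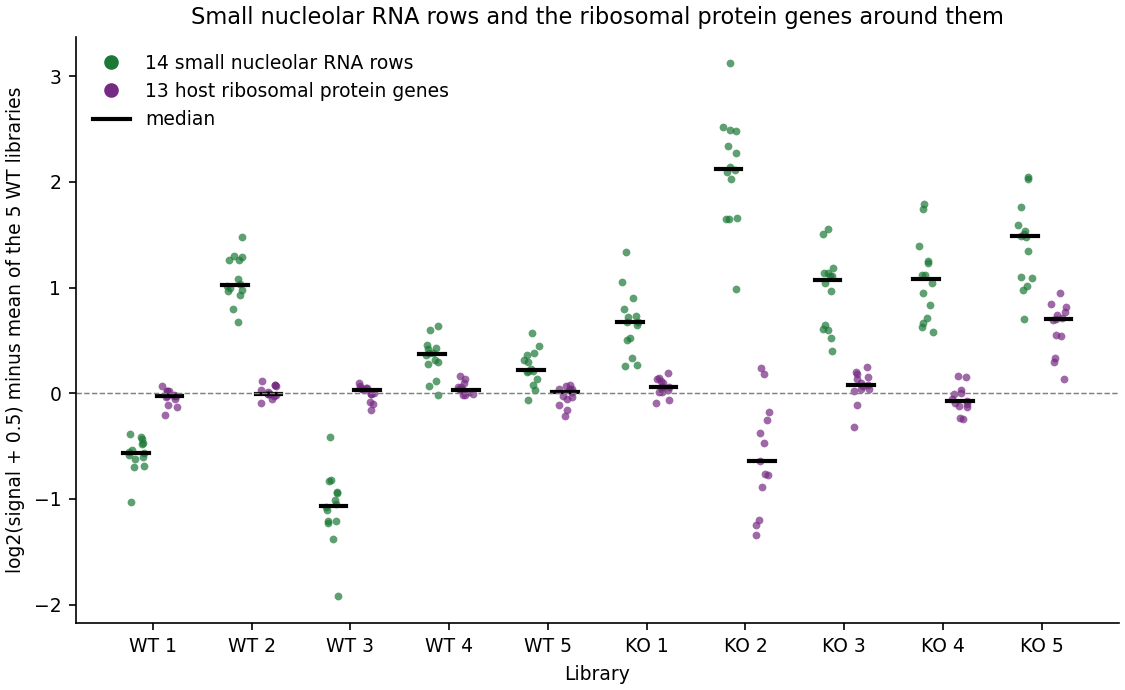
Deviation from the WT mean (y axis, log2 units of signal + 0.5) in each library (x axis) of 14 small nucleolar RNA rows, in green, and of the 13 ribosomal protein genes that contain them, in purple, with medians as black bars. In KO2 the small RNA median is 2.12 and the host median -0.64, and in KO5 both are above 0.

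Other parts of the ribosome-making machinery were set beside the family, from lists chosen with earlier results known. Fau encodes a ribosomal protein fused to a ubiquitin-like sequence, Rpl36al is a near copy of Rpl36a, and Gnb2l1 encodes Rack1. Over the 4 measured genes of this list the median deviation was -0.96 in KO2 and 0.55 in KO5, with 0 called, though Gnb2l1 was 323.6 in KO2, inside its WT range of 315.9 to 338.2. The 18 other TOP mRNAs, mainly translation factors, had medians of -0.15 and 0.67, and 15 of 18 were above all WT libraries in KO5 (40.9% of all genes) and 9 of 18 below them in KO2 (38.1%). The 45 ribosome assembly factors had -0.20 and 0.56, and the 17 genes of RNA polymerase I and its factors -0.36 and 0.26. All of these lists had 0 genes called with all libraries.

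Rrp12, a factor of ribosome assembly and export, was 18.5, 17.5, 22, 18.6 and 20.2 in WT1 to WT5 and 31.7, 26.5, 22.7, 25.6 and 66.7 in KO1 to KO5. Without KO5 it rose by 0.45 (SE 0.11, limma adjusted p = 0.0395), the 1 call among the 45 assembly factors, where 4.98% of all genes were called, against 0.71 (SE 0.24, limma adjusted p = 0.154) with all libraries. Of the 20 tested growth-control genes, 2 were called in that fit, Sesn3, which restrains mTORC1, lower (-0.51, SE 0.09, limma adjusted p = 0.0149), and Flcn, the folliculin gene, higher (0.41, SE 0.09, limma adjusted p = 0.0284). Flcn was 61.4, 57.5, 55.5, 57.5 and 63.5 in WT1 to WT5 and 75.5, 68.8, 78.7, 92.1 and 177.2 in KO1 to KO5, with no overlap. With all libraries neither was called, at -0.60 (SE 0.12, limma adjusted p = 0.0687) for Sesn3 and 0.64 (SE 0.22, limma adjusted p = 0.148) for Flcn. In KO5, 13 of the 20 growth-control genes lay above all WT libraries (40.9% of all genes) and 5 below (41.9%), Sesn3 among the latter. Other restraints of mTORC1 lay above, such as Sesn1 (4.34 times the WT mean), Sesn2 (1.39) and Ddit4 (3.06), named after their values were seen. The 11 tested genes of the MYC network had a median deviation of 0.12 in KO2 and 0.81 in KO5, with 0 called with or without KO5. In KO5, 9 of 11 lay above all WT libraries (40.9% of all genes), and Mycn lay below (41.9%). Those above included Mxi1, Mnt and Mxd1, whose proteins antagonise MYC. Myc and Mycn were named after their values were seen. Myc was 2.03 to 2.55 in WT and 2.59, 4.09, 3.99, 5.36 and 12.1 in KO1 to KO5. Mycn was 4.09 to 6.74 in WT and 5.05, 2.82, 2.02, 1.82 and 1.32 in KO. Without KO2 and KO5, where 10.7% of all genes were called, Mycn was called lower (-0.93, SE 0.26, limma adjusted p = 0.0454). Myc was not called in that fit (0.64, SE 0.19, limma adjusted p = 0.0529). With all libraries neither was called, at -1.08 (SE 0.27, limma adjusted p = 0.0972) for Mycn and 0.97 (SE 0.30, limma adjusted p = 0.134) for Myc.

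The mitochondrial ribosome did not share the KO5 course, a difference that was not tested. Its 77 genes had median deviations of -0.19, -0.61, -0.20, -0.22 and -0.57 in KO1 to KO5, below 0 in every KO heart. They were summed to 3540 to 3880 in WT and to 3209, 2443, 3200, 3154 and 2509 in KO1 to KO5, with no overlap. With all libraries 0 were called and the median change was -0.37. Without KO5, 10 of 77 were called lower and 0 higher (median -0.30), where 2.71% of all genes were called lower, led by Mrpl45 (-0.48, SE 0.09, limma adjusted p = 0.0148), Mrpl39 (-0.43, SE 0.08, limma adjusted p = 0.0148) and Mrpl3 (-0.44, SE 0.08, limma adjusted p = 0.0193). With all libraries these 3 had limma adjusted p values of 0.122, 0.0687 and 0.107. Without KO2, 0 of 77 were called, where 0.109% of all genes were. Without KO2 and KO5 together, 28 of 77 were called lower and 0 higher, where 6.42% and 4.24% of all genes were.

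Marker genes of the heart's cell types were summed as a measure beside these values, and in KO5 the sums of all 7 lists lay outside the WT range. In bulk tissue, fewer cells of a type and less RNA per cell cannot be told apart. The 10 cardiomyocyte markers, all detected in every library, were summed to 146266 to 162464 in WT, 81719 in KO2 and 87946 in KO5. In KO2, 9 of 10 lay below all WT libraries (38.1% of all genes), and in KO5 7 of 10 did (41.9%). Above all WT libraries in KO5 were 2 of 10 (40.9%), the sarcomere genes Tnnt2, at 2.01 times the WT mean, and Actn2, at 1.61 times, both named after their values were seen. The 9 fibroblast markers were summed to 5020 to 6328 in WT, 6188 in KO2 and 2013 in KO5. By gene, 6 of 9 lay above all WT libraries in KO2 (34.7% of all genes), and 7 of 9 lay below them in KO5. Dcn, which encodes decorin and was named after its values were seen, was at 1.9 times the WT mean in KO2 and at 1.89 times in KO5. It also lay above its WT range of 707.9 to 754.6 in KO1, KO3 and KO4, at 891.7, 880.6 and 838.8. With all libraries it was not called (change 0.52, SE 0.16, limma adjusted p = 0.133). In KO5 Dcn, at 1378.3, made up most of the fibroblast sum.

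The 8 endothelial markers were summed to 1430 to 1561 in WT, 1008 in KO2 and 1090 in KO5. In KO2, 7 of 8 lay below all WT libraries (38.1% of all genes) and 1 above (34.7%). In KO5, 5 of 8 lay below (41.9%) and 2, Emcn and Pecam1, above (40.9%). The 9 macrophage markers were summed to 295.3 to 340.0 in WT, 436.9 in KO2 and 229.1 in KO5, and the 5 smooth muscle markers to 481.3 to 603.0, 479.8 and 127.2. In KO5, 7 of 9 macrophage markers lay below all WT libraries (41.9% of all genes) and 2, Cd68 and Cd163, above (40.9%). Of the smooth muscle markers, 3 of 5 lay below and 1, Tagln, above. Acta2, named after its values were seen, made up most of the smooth muscle sum in WT (312.1 to 439.4) and was 42.0 in KO5. The 3 measured erythroid markers were summed to 71.3 to 134.2 in WT, 123.1 in KO2 and 26.8 in KO5. The 7 lymphocyte markers were summed to 3.34 to 5.42 in WT, 3.69 in KO2 and 9.09 in KO5, of which Cd3e alone gave 8.13, and 3 were listed at 0 in KO5, Cd3d and Ms4a1 among them. In KO2 the fibroblast, erythroid and lymphocyte sums thus lay inside the WT range. The other KO hearts also left it for some lists. Endothelial sums were 1381, 1366 and 1315 in KO1, KO3 and KO4, all under the WT range, and smooth muscle sums were 641.7, 343.1 and 303.0, above it in KO1 and under it in KO3 and KO4. Acta2 alone was 464.8, 207.5 and 152.1 in the same hearts. Erythroid sums were 115.4, 143.7 and 57.3 there, above the WT range in KO3 and under it in KO4. The macrophage sum in KO3 (344.5) and the fibroblast sum in KO1 (6522.5) lay above the WT range. The cardiomyocyte sum in KO4 (146224) lay just under it. The cardiomyocyte sum was 125172 in KO3, and the fibroblast sum was 4286 in KO4. Both sums lean on their highest genes, here named after their values were seen. Ttn, the largest part of the cardiomyocyte sum, was 49746 in KO3 against a WT mean of 75980, while the list's median deviation there was -0.13. Col3a1, the largest part of the fibroblast sum in WT, was 2018 in KO4 against a WT mean of 3020. The part of these cell types in the ribosomal protein values was not tested. Without KO5, where 4.98% of all genes were called, 1 of 10 cardiomyocyte and 1 of 8 endothelial markers were called. These were Ryr2, the calcium release channel of cardiomyocytes (-0.53, SE 0.12, limma adjusted p = 0.0291), and Kdr, a VEGF receptor of endothelium (-0.55, SE 0.11, limma adjusted p = 0.021). With all libraries neither was called, at -0.64 (SE 0.17, limma adjusted p = 0.105) and -0.70 (SE 0.17, limma adjusted p = 0.0972).

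**Figure D5:**
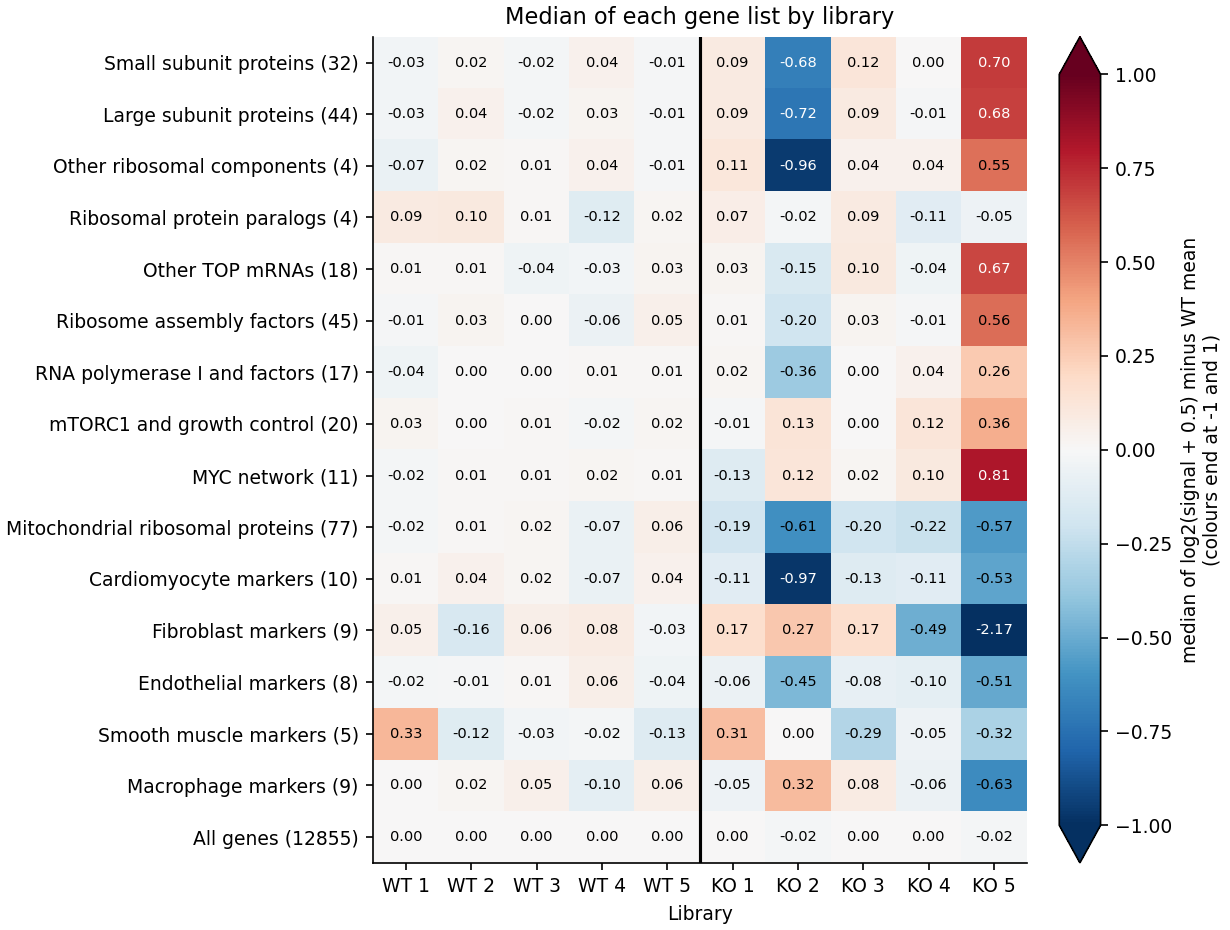
Median deviation from the WT mean of each gene list (rows, number of tested genes in brackets) in each library (columns), in log2 units of signal + 0.5, from blue (low) to red (high). Both subunits of the cytosolic ribosome are near -0.70 in KO2 and near 0.70 in KO5, while mitochondrial ribosomal proteins and cardiomyocyte markers are below 0 in both.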

How the data were processed

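Hearts of 5 WT and 5 Lmna KO mice were sequenced as total RNA with a TruSeq kit, 3 lanes a library, per the labels. The build mm10 (GRCm38) and the tools TopHat2, Cufflinks and edgeR are named in the submitters' processing notes, without versions. How reads were counted, and whether by strand, is not stated there. The authors deposited 1 signal value per gene and library, CPM of the effective library size by the sheet's name, and a comparison table with a signal level for each genotype, their log2 ratio, the p-value, a false discovery rate and positions. The deposited signal values were whole multiples of 1 read in 100% of cases (tolerance 0.01 read), so whole reads were recovered for edgeR 4.0.16 and DESeq2 1.42.0 as alternatives. Library totals ran from 15259545 to 22146030 recovered reads. A total of 21 rows without a usable gene name, 0.1336% to 0.2037% of reads, were left out.

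The main test was limma 3.58.1 (R 4.3.3) on log2(signal + 0.5) with 1 factor, genotype, a trend of variance with signal, and two-sided p-values adjusted by Benjamini-Hochberg over all 12855 genes. It understates the change of low genes. No set of libraries of a genotype agreed within sampling noise (chi-square per degree of freedom 5.19 or above). Named genes were Lmna, called members (all libraries or without KO5), the 6 highest and 6 lowest changes, 11 members and the paralogs fixed by name, and up to 3 called genes of each other list. Genes named outside this rule are said to be chosen after their values were seen, or illustrate sequences, small RNAs or list members. The members and lists were chosen with earlier results of these data known. The procedure was tested on simulated data, drawn for both genotypes with the spread among WT libraries. Over all genes the median coefficient of variation was 8.53% in WT and 22.4% in KO. That test therefore does not cover the spread among the real KO hearts. Alternatives changed the pseudocount (0.1 and 1), the filter (none, 5), the scaling, the moderation, library weights, a replicate block and the libraries included. Sequences are from RefSeq. A few single genes are not reported here.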

Additional observations from a re-analysis of the deposited data

Results flagged for a closer look

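Of 54 groups of 5 values looked at for the named members, Lmna and the summed signal, 3 held a library far from the other 4 of its genotype (gap to the nearest over the whole range above 0.71). About 1 in 20 such groups does so by chance. Rps13 was 199.9 in KO5 against 129.4 to 148.2 in the other KO hearts. In WT4, Rpl11 was 178.1 against 166.5 to 168.8 in the other WT hearts, and Rpl7l1 was 43.5 against 51.4 to 53.3.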

How the results depend on the processing

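No ribosomal protein gene was called under 21 of the 23 alternatives. Library weights (limma) and leaving out KO2 and KO5 together called 2 members each, Rpl13a higher and Rps2 lower. The count over all genes, 26, was 14 with a minimum mean of 5, 2280 with library weights, 68 with CPM of all recovered reads without the effective size (chosen after seeing the data), 1370 without KO2 and KO5 and 879 with DESeq2. It ranged from 6 to 640 when 1 library was left out, the highest without KO5. It was 6 to 9 without any 1 WT library, 14 without KO2 and 11 without KO3. The median change of the members ranged from 0.017 to 0.107 under the other alternatives and from -0.135 (without KO5) to 0.211 (without KO2) when 1 library was left out. The ratio of summed signals ranged from 0.931 (without KO5) to 1.16 (without KO2). Scaling shifted the median of all genes by at most 0.051. Of 552 values of 24 named members under alternatives, 35 had the opposite sign, 22 of them with KO2, KO5 or both left out, and none of the 35 was called. Same-numbered WT and KO libraries did not pair: the correlation of their deviations was -0.13 to 0.18, over 0.1 for 3 of 5, and 1 of 5 correlated best with its own number. With the replicate number as a block, 35 genes and 0 members were called, and the median change of the members was 0.024. The lowest mean signal among the tested members was 20.8. The causes of these differences were not tested.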
